A study of Mus with 6 samples.

Results

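The IER and small MAF genes form a set of 7, labelled early response genes and studied here in mouse lens epithelial cells (LECs). They are Ier2, Ier3, Ier5 and Ier5l, and Maff, Mafg and Mafk, and were chosen by name with earlier results of these data known. Of these 7, 6 could be matched to a row of the 55421 genes counted, while Mafg had no matching identifier at hand and was not analysed here. The RNAseq compared LECs of wildtype C57BL/6 mice, given an age of 2 months by the labels and an older range in the study's methods, at 0 h and at 6 h post cataract surgery (PCS), that is, after the lens fiber cells had been taken out of the eye and the LECs left on the capsule. Each time point had 3 libraries, each from a pool of 5 capsules, and no genotype or drug differed between the groups. The design text has a mouse give its earlier operated eye to the 6 h pools and its other eye to the 0 h pools, so the groups can share mice. As the cells were measured in bulk, more cells of a type and more RNA per cell cannot be told apart.

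Immediate early genes are transcribed within minutes of a growth factor, stress or mechanical signal without any need for newly made protein, and many are switched on by MAPK signaling through serum response factor and its partners. The IER genes encode small proteins with no shared enzyme activity. Ier2 and Ier5 encode related nuclear proteins, Ier5 binds the phosphatase PP2A and the heat shock factor HSF1, and Ier3 encodes a regulator of cell survival and of ERK signaling. The small MAF proteins are basic leucine zipper factors that lack an activation domain. They repress as homodimers, activate antioxidant genes when paired with a CNC factor such as NRF2, and repress them when paired with BACH1. In mice, a combined deficiency of Mafg and Mafk can lead to cataract.

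Between 18039974 and 24701039 read pairs per library were counted on genes. Of 16810 genes that passed the low-count filter, 5.35% were differentially expressed genes (DEGs), defined by an adjusted p no higher than 0.05 with more than a 2-fold change, and 4.53% were upregulated DEGs. All 6 matched members passed that filter. Levels below are counts scaled to a common library total with TMM factors (CPM) unless FPKM is named. FPKM adjusts for exon length and uses library totals without TMM factors. Fold changes, standard errors and adjusted p-values come from the edgeR quasi-likelihood test with Benjamini-Hochberg adjustment over all 16810 genes.

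At 6 h PCS, 5 of the 6 members (Ier2, Ier3, Ier5, Maff and Mafk) were upregulated DEGs, and 0 were downregulated. In the same 5 genes each library at 6 h PCS lay above each library at 0 h PCS, a pattern found in 15.3% of all genes tested. The median log2 fold change of the 6 members was 3.23, against −0.0030 over all genes tested. The members were chosen with earlier results of these data known, and symbols were at hand more often for changed genes. The count of calls and the median therefore describe these genes and are no independent test of the group. The sizes fell into a higher range of 8.84-fold to 13.7-fold for Ier2, Ier5, Ier3 and Maff, and a lower one of 2.91-fold for Mafk, with Ier5l not called.

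**Figure D1:**
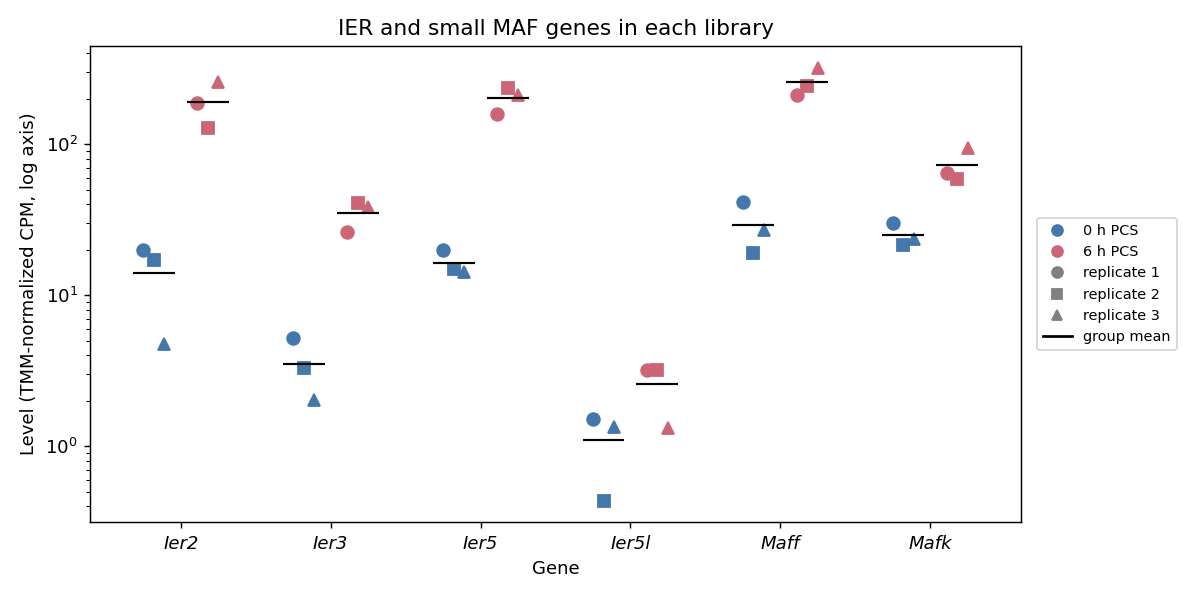
Level of each member in each library as TMM-normalized CPM on a log axis, with 0 h PCS in blue, 6 h PCS in red, a marker shape per replicate number and a black line at the group mean. The groups are apart in Ier2, Ier3, Ier5, Maff and Mafk, while in Ier5l the 6 h replicate 3 point at 1.32 CPM lies below the highest 0 h point at 1.504 CPM.

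Among the IER genes, Ier2 (ENSMUSG00000053560) had the largest fold change and also the widest spread at 0 h PCS. Its levels were 19.9, 17.2 and 4.74 CPM in the 0 h replicates 1, 2 and 3, and 186, 128 and 260.4 CPM in the 6 h replicates 1, 2 and 3. The third 0 h library stood well under the other 2, with 110 counts against 464 and 473, yet even the highest 0 h level was exceeded 6.43-fold by the lowest 6 h level. The mean rose from 14.0 ± 8.10 to 192 ± 66.3 CPM (SD, n = 3), by 3.78 on the log2 scale (standard error 0.630, edgeR adjusted p = 0.0264), or 13.7-fold with a 95% interval of 4.56 to 41.2. The call changed with the library left out, while the fold change stayed large. Ier2 remained a DEG without 0 h replicate 3 (log2 fold change 3.36, edgeR adjusted p = 0.00102) and without 6 h replicate 2 (edgeR adjusted p = 0.0449). It lost the call without 0 h replicate 1, 0 h replicate 2, 6 h replicate 1 or 6 h replicate 3, with edgeR adjusted p-values of 0.0574, 0.0756, 0.0946 and 0.0773 and log2 fold changes of 3.49 to 4.12. It also lost the call with no low-count filter (edgeR adjusted p = 0.0574) and with the replicate number as a block (log2 fold change 3.87, standard error 0.874, edgeR adjusted p = 0.143).

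Ier5 (ENSMUSG00000056708) showed the most even rise of the family. Its levels were 19.8, 14.8 and 14.3 CPM at 0 h PCS and 158, 235 and 210.4 CPM at 6 h PCS. The lowest library at 6 h PCS was 7.95-fold above the highest at 0 h PCS, the widest such gap among the members. The mean rose from 16.3 ± 3.05 to 201 ± 39.8 CPM (SD, n = 3), by 3.62 on the log2 scale (standard error 0.206, edgeR adjusted p = 3.55e-05), or 12.3-fold with a 95% interval of 8.98 to 17.0. By p-value Ier5 ranked 4 among the 16810 genes tested, while by log2 fold change it ranked 131. Ier2, whose fold change ranked 114, ranked 937 by p-value. The interval of Ier2 spans that of Ier5, so the order of the pair by fold change is not resolved.

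Ier3 (ENSMUSG00000003541), also known as IEX-1, rose in each library at 6 h PCS over each at 0 h PCS. Its levels were 5.24, 3.27 and 2.03 CPM at 0 h PCS, from 122, 90 and 47 counts, and 26.1, 40.5 and 38.4 CPM at 6 h PCS. As in Ier2, 0 h replicate 3 was the lowest library. The mean rose from 3.51 ± 1.62 to 35.0 ± 7.82 CPM (SD, n = 3), by 3.32 on the log2 scale (standard error 0.343, edgeR adjusted p = 0.000619), or 9.96-fold with a 95% interval of 5.84 to 17.0.

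Ier5l (ENSMUSG00000089762), the relative of Ier5, had the fewest counts of the members. Its counts were 35, 12 and 31 at 0 h PCS and 48, 71 and 22 at 6 h PCS, which is 1.504, 0.437 and 1.34 CPM against 3.22, 3.19 and 1.32 CPM. The groups overlap, because 6 h replicate 3 lies at the level of the 0 h libraries. The log2 fold change was 1.24 (standard error 0.615, 95% interval −0.13 to 2.61, edgeR adjusted p = 0.265), so the gene did not pass, and the interval holds no change as well as a 6.12-fold rise. The upper end lies below the lower end for Ier5 (3.17), although the difference between the genes was not tested.

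Maff (ENSMUSG00000042622) was the small MAF gene with the larger fold change. Its levels were 41.5, 19.2 and 27.0 CPM at 0 h PCS and 211, 242 and 322 CPM at 6 h PCS. The highest 0 h library was replicate 1, and the lowest 6 h library, also replicate 1, stood 5.08-fold above it. The mean rose from 29.2 ± 11.3 to 258 ± 57.4 CPM (SD, n = 3), by 3.14 on the log2 scale (standard error 0.299, edgeR adjusted p = 0.000673), or 8.84-fold with a 95% interval of 5.50 to 14.2.

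Mafk (ENSMUSG00000018143), the other small MAF gene with a match, rose less. Its levels were 29.9, 21.6 and 23.4 CPM at 0 h PCS and 64.9, 59.3 and 94.0 CPM at 6 h PCS. The lowest 6 h library was 1.98-fold above the highest 0 h library, and 6 h replicate 3 was the highest of the group, as it was for Ier2 and Maff. The mean rose from 25.0 ± 4.39 to 72.7 ± 18.6 CPM (SD, n = 3), by 1.54 on the log2 scale (standard error 0.207, edgeR adjusted p = 0.00202), or 2.91-fold with a 95% interval of 2.11 to 4.01. In a test against a fold change of 2 in place of 0 change (glmTreat of edgeR), Ier3, Ier5 and Maff passed, with adjusted p-values of 0.00366, 0.00012 and 0.00386, and Mafk (0.132) and Ier2 (0.107) did not.

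**Figure D2:**
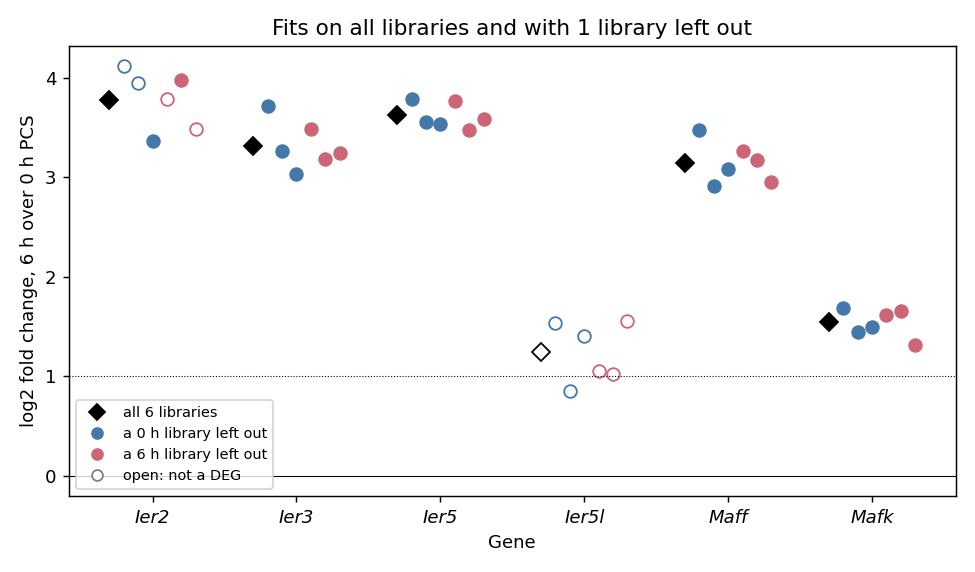
Log2 fold change of each member in the fit on all 6 libraries (black diamond) and in the 6 fits that each left out 1 library (blue, a 0 h library; red, a 6 h library), with open symbols where the gene was not a DEG and a dotted line at the fold limit. Ier3, Ier5, Maff and Mafk are filled throughout, Ier2 is open in 4 of 6 fits and Ier5l in all.

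Ier3, Ier5, Maff and Mafk were DEGs in each of the 6 fits that left out a library. Their log2 fold changes lay between 3.04 and 3.71 for Ier3, 3.48 and 3.78 for Ier5, 2.91 and 3.48 for Maff, and 1.31 and 1.69 for Mafk. The same 4 genes, and Ier2 with them, were DEGs under DESeq2, under the exact test of edgeR and when libraries were scaled on their size alone.

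Levels of different genes can be set side by side only per length, which FPKM allows for the 5 members with a known exon length (Ier5l had none). At 0 h PCS the order was Maff (12.5 ± 4.65 FPKM), Ier2 (10.1 ± 5.76), Mafk (7.14 ± 1.14), Ier5 (5.54 ± 0.916) and Ier3 (3.44 ± 1.52 FPKM; SD, n = 3). Maff and Ier2, and Ier2 and Mafk, differed by less than the SD of Ier2. At 6 h PCS the order was Ier2 (111 ± 34.5 FPKM), Maff (89.5 ± 21.0), Ier5 (55.8 ± 15.7), Ier3 (28.1 ± 8.34) and Mafk (16.7 ± 3.94 FPKM; SD, n = 3). Mafk thus went from the third place to the last, and each library at 6 h PCS had Ier3 above it. Ier2 and Maff differed by 21.9 FPKM at 6 h PCS, less than the SD of Ier2, and Ier2 was the higher in 2 of 3 libraries, so their order is not resolved. The gaps from Maff to Ier5 (33.8 FPKM), from Ier5 to Ier3 (27.6 FPKM) and from Ier3 to Mafk (11.5 FPKM) exceeded the SDs of the genes beside them and held in 3 of 3 libraries, with no test run on them.

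**Figure D3:**
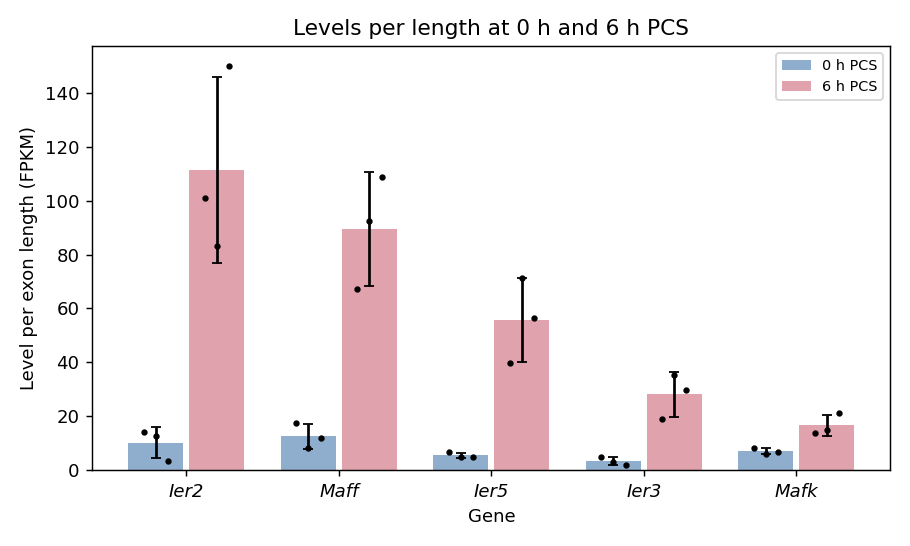
Levels per exon length of the 5 members with a known length, as FPKM on a linear axis from 0, with bars for the group mean at 0 h PCS (blue) and 6 h PCS (red), error bars for the SD over 3 libraries and a dot per library. Ier2 and Maff reach 111 and 89.5 FPKM at 6 h PCS with overlapping error bars, and Mafk stays at 16.7 FPKM.

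As a difference between group means, Ier2 gained 101.3 FPKM, Maff 77.0, Ier5 50.2, Ier3 24.7 and Mafk 9.51 FPKM. The TMM factors, which FPKM leaves out, lower the 0 h levels and raise the 6 h levels in CPM. Added together, the 5 genes took 51.8, 35.2 and 29.4 FPKM in the 0 h replicates 1, 2 and 3, and 240.9, 297 and 366 FPKM in the 6 h replicates 1, 2 and 3. All 5 genes therefore also passed the limits that the study set for biological significance, which ask for more than 2 FPKM both in the higher group mean and in the difference.

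A share within a library does not depend on how libraries are scaled. Maff made up 67.6%, 57.2% and 63.4% of the summed FPKM of Maff and Mafk in the 0 h replicates 1, 2 and 3. At 6 h PCS its share was 83.0%, 86.0% and 83.7%, so the groups do not overlap. The mean share of Maff went from 62.7% ± 5.22 to 84.2% ± 1.58 (SD, n = 3), a difference of 21.5 percentage points (two-sided exact permutation test, p = 0.10, adjusted p = 0.40 over 4 shares). With 3 libraries against 3, 0.10 is the smallest p that this test can give. Mafg is missing from this sum.

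Within the IER genes the FPKM shares of Ier2, Ier3 and Ier5 overlapped between the time points. Ier2 held 55.1%, 60.3% and 33.6% of the summed FPKM of Ier2, Ier3 and Ier5 at 0 h PCS and 63.2%, 43.8% and 63.5% at 6 h PCS (two-sided exact permutation test, p = 0.5). Ier5 held 25.4%, 24.2% and 47.0% at 0 h PCS and 24.9%, 37.5% and 23.9% at 6 h PCS (p = 0.6 by the same exact test). The mean share of Ier3 was 18.1% ± 2.29 at 0 h PCS and 14.4% ± 3.72 at 6 h PCS (SD, n = 3; p = 0.2 by the same exact test). The 0 h library with the low Ier2 level, replicate 3, set the direction: without it the difference at 6 h over 0 h PCS was −0.833 percentage points for Ier2, in place of 7.19, and 3.91 points for Ier5, in place of −3.50. Ier5l, for which only raw counts could be used, held 3.23%, 1.22% and 5.97% of the summed counts of the 4 IER genes at 0 h PCS and 0.862%, 0.783% and 0.259% at 6 h PCS. These shares do not overlap (two-sided exact permutation test, p = 0.10, the smallest it can give, and outside the 4 adjusted shares), and the other 3 genes of the sum rose.

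**Figure D4:**
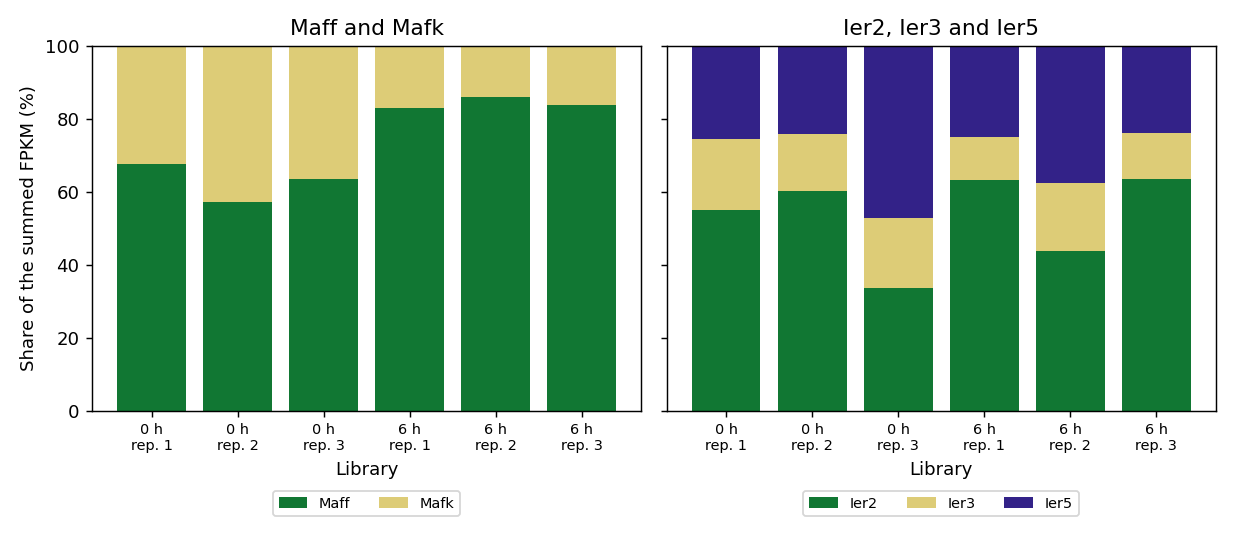
Share of each gene in the summed FPKM of its family, in percent, with a stacked bar per library. On the left, the Maff part is 57.2% to 67.6% in the 0 h libraries and 83.0% to 86.0% in the 6 h libraries, and on the right the Ier2, Ier3 and Ier5 parts overlap between the time points.

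The spread between libraries was not shared evenly by the members. In the 0 h group replicate 1 had the highest CPM of all 6 members. In the 6 h group replicate 1 was the lowest for Ier3, Ier5 and Maff, replicate 2 the lowest for Ier2 and Mafk, and replicate 3 the lowest for Ier5l. The coefficient of variation over the 3 libraries of a group ran from 17.6% for Mafk to 58.0% for Ier2 at 0 h PCS, and from 19.8% for Ier5 to 42.1% for Ier5l at 6 h PCS.

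The root mean square difference between log2 CPM profiles, each centred on its own mean over the 6 libraries and taken after adding a prior count of 2, gives how alike the members behaved. Among the members Ier3 and Ier5 were the closest pair, 0.289 log2 units apart, followed by Ier5 and Maff (0.344) and Ier3 and Maff (0.381). Ier2 was nearest to Ier3, at 0.591. Over the 6372 genes that were both tested and named, the closest to Ier2 were Zfp36 (0.232), which encodes an mRNA decay factor, Egr1 (0.263) and Atf3 (0.310), both early response transcription factors. Among the 3 genes closest to Maff were Il6ra (0.141), a subunit of the interleukin 6 receptor, and the kinase gene Itpkc (0.169). Ier5 was closest to Tcim (0.181), and Mafk to Tbxas1 (0.108), Bach1 (0.109) and Mcl1 (0.113), a survival gene. Ier3 was closest to the hemoglobin gene Hbb-bs (0.222), Ccn1 (0.269) and Ier5 (0.289), and Ier5l to Hdx (0.293), Gm37902 (0.324) and Gm43162 (0.325). The prior count shrinks the profiles of genes with few counts: Il7 came within 0.20 of Ier5, although its fitted log2 fold change was 7.26 (standard error 1.45). The names at hand lean towards changed genes, and a large difference between the time points alone brings profiles together.

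Of the partners of the small MAF proteins, 2 of the 6 CNC and BACH genes listed were tested under a known name, with 1 upregulated DEG. Bach1, which encodes the repressor that pairs with small MAF proteins, was at 45.1, 27.2 and 30.3 CPM at 0 h PCS and at 79.0, 73.1 and 113 CPM at 6 h PCS. Its libraries did not overlap, and its log2 fold change was 1.37 (standard error 0.231, edgeR adjusted p = 0.00711), near that of Mafk. Bach2 had 38.6 ± 2.36 and 50.2 ± 14.1 CPM (SD, n = 3) and a log2 fold change of 0.38 (standard error 0.202, edgeR adjusted p = 0.299). Of 4 large MAF genes only Nrl had a name at hand, at 21.3, 55.8 and 7.63 CPM in the 0 h libraries and 47.1, 91.2 and 16.7 CPM in the 6 h libraries. The groups overlap, and its log2 fold change was 0.87 (standard error 0.940, edgeR adjusted p = 0.645), or 0.14 to 1.84 when a library was left out, lowest without 6 h replicate 2 and highest without 0 h replicate 2. The NRF2 gene itself was not analysed here.

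Genes with antioxidant response or MAF recognition elements are the known targets of these dimers, and 5 of 10 listed could be tested. Of the 5, 3 were upregulated DEGs and 0 downregulated, with a median log2 fold change of 1.92. Of all genes tested 4.53% were upregulated DEGs, but a gene of any list here could be tested only where its symbol was known, which was more often so for changed genes. Srxn1, the sulfiredoxin gene, rose from 49.7 ± 24.3 to 578 ± 147 CPM (SD, n = 3), by 3.54 on the log2 scale (standard error 0.422, edgeR adjusted p = 0.0043). Txnrd1, which encodes thioredoxin reductase, rose by 1.92 on the log2 scale (standard error 0.251, edgeR adjusted p = 0.00215). Hmox1, the heme oxygenase gene and a classic target of BACH1, rose by 2.09 on the log2 scale (standard error 0.412, edgeR adjusted p = 0.0264). It lost the call without 6 h replicate 2 or without any of the 3 libraries at 0 h PCS. In those fits the edgeR adjusted p-values ran from 0.0699 to 0.0968, and the log2 fold changes from 1.99 to 2.25. The call was also lost with no low-count filter (log2 fold change 2.07, edgeR adjusted p = 0.0516) and with the replicate block (log2 fold change 1.96, edgeR adjusted p = 0.0565). Gclc (0.05) and Slc7a11 (−0.06), which serve glutathione synthesis and cystine import, had log2 fold changes near 0. When libraries were scaled on size alone, which moved the median of all genes to −0.32, Gclc was at −0.28 and Slc7a11 at −0.35. Srxn1, Txnrd1, Bach1 and Srf were DEGs in each of the 6 fits that left out a library.

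Upstream of early response genes, 3 of 6 listed genes for SRF and its partners were tested, and 1 was an upregulated DEG. Srf rose from 16.1 ± 3.48 to 82.0 ± 16.6 CPM (SD, n = 3), by 2.35 on the log2 scale (standard error 0.207, edgeR adjusted p = 0.000267). Elk4 (0.44) and Elk3 (0.09), which encode ternary complex factors, had smaller log2 fold changes and did not pass. Under library size scaling, which moved the median of all genes to −0.32, Elk4 was at 0.14 and Elk3 at −0.21. Of the genes for interactors of the IER proteins, 3 of 5 were tested and 0 were DEGs in edgeR or DESeq2, though 2 had an unadjusted p under 0.05 in edgeR. Ppp2r2a, a regulatory subunit gene of PP2A, came nearest, with a log2 fold change of 0.92 (standard error 0.168, edgeR adjusted p = 0.00933), which passes the limit on p but not on fold. It became a DEG without 0 h replicate 3, at a log2 fold change of 1.07. The PP2A catalytic gene Ppp2ca (0.47) and Hsf1 (0.18) had lower values. With the same shift of all genes under library size scaling, Ppp2ca was at 0.16 and Hsf1 at −0.15.

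**Figure D5:**
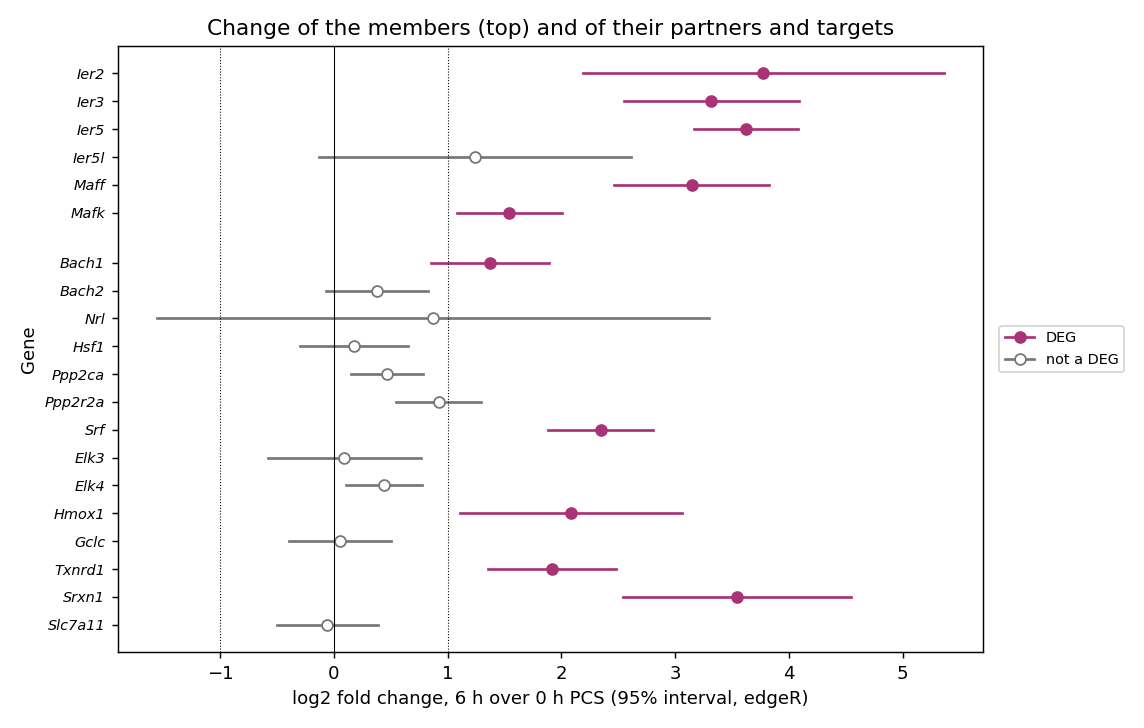
Log2 fold change at 6 h over 0 h PCS with its 95% interval from edgeR for the 6 members (top) and for the partner, regulator and target genes that could be tested (bottom), filled where the gene was a DEG, with dotted lines at a change of 2-fold either way. Ier5 has the narrowest interval of the members above 3, Ier2 and Ier5l have the widest of the members, and below them Srf, Srxn1, Txnrd1, Hmox1 and Bach1 are filled.

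The member genes lie on different chromosomes of GRCm38: Ier5 on chromosome 1 (155096367 to 155099636), Ier5l on 2 (30472631 to 30474199), Mafk on 5 (139791536 to 139802653), Ier2 on 8 (84661331 to 84662852), Maff on 15 (79346621 to 79359078) and Ier3 on 17 (35821713 to 35822911). In the RefSeq annotation no other gene overlaps any of these 6. Neighbours that could be named, picked by position after the members' values were known, did not pass the test. For Flot1, 409 bases from Ier3, the log2 fold change was 0.54 (standard error 0.219, edgeR adjusted p = 0.170). Tmem184b, 1606 bases from Maff, had −0.14 (standard error 0.144, edgeR adjusted p = 0.617), and Pla2g6 on its other side had −0.11 (standard error 0.250, edgeR adjusted p = 0.839).

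Markers of the labelled cell type and of other cells moved as follows. Of 10 lens epithelial markers 6 could be named, and their summed level was 1698 to 1922 CPM at 0 h PCS and 1508 to 1769 CPM at 6 h PCS. Within the list, Epha2 was an upregulated DEG (log2 fold change 1.21, edgeR adjusted p = 0.0134). Prox1 (−0.75, edgeR adjusted p = 0.0119) and Sox2 (−0.70, edgeR adjusted p = 0.0151) passed the limit on p but not on fold, with each 6 h library below each 0 h library. The 3 erythrocyte genes Hbb-bs, Hba-a1 and Alas2 were all upregulated DEGs, with a sum of 4.87 to 10.5 CPM at 0 h PCS and 42.9 to 80.8 CPM at 6 h PCS. Of 9 leukocyte markers 6 were named and 1, Cd68, was an upregulated DEG, with sums of 13.5 to 22.6 and 16.8 to 32.2 CPM. The 3 endothelial genes summed to 3.75 to 25.9 and 19.3 to 35.8 CPM, and 0 were DEGs in edgeR, with 2 at an unadjusted p under 0.05, Pecam1 and Cdh5, each higher in all 3 libraries at 6 h PCS. The corneal keratin gene Krt12 had 2.97 ± 3.53 and 55.3 ± 10.8 CPM (SD, n = 3), an 18.8-fold difference with an edgeR adjusted p of 0.0792, and Krt5 had a 9.23-fold difference with an edgeR adjusted p of 0.146. Both had each 6 h library above each 0 h library without passing. The third named corneal gene of 4 listed, Aldh3a1, had 436 ± 77.2 and 279 ± 60.0 CPM (SD, n = 3; log2 fold change −0.64, edgeR adjusted p = 0.0725) and made up most of their sum of 347 to 494 and 318 to 450.1 CPM. The 4 named pigment cell markers of 5 summed to 51.3 to 209 CPM at 0 h PCS and 77.3 to 1962 CPM at 6 h PCS. The top value was in 6 h replicate 3, and 6 h replicate 2, at 455 CPM, also lay above the 0 h libraries. Without 6 h replicate 3, Ier3, Ier5, Maff and Mafk remained DEGs and Ier2 did not. Ier2 also lost its call without some other single libraries, and the pigment sum of 6 h replicate 2 stayed in that fit. None of these named markers was at 0 in every library. The part of these other cells in the rise of the members was not tested.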

How the data were processed

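Reads were mapped by the authors with Hisat2 against GRCm38, and HTSeq (union) then assigned each pair to an Ensembl gene. The deposited files hold these raw counts, with 5 summary rows of HTSeq that were left out here. The strand setting is not given in the sources used here. Gene counts were 33.6% to 41.2% of the read pairs per library. From the counts, edgeR 4.0.16 in R 4.3.3 gave TMM factors, the low-count filter by group, robust dispersions and the quasi-likelihood F-test in the form of the earlier version that the methods name. The test was checked on simulated data. Standard errors are the absolute log2 fold change over the square root of F, and 95% intervals use the moderated degrees of freedom. FPKM used total gene counts and the exon lengths of the study's tables. Shares were tested with Python 3.11.15 and scipy 1.17.1.

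Symbols came from the supplementary tables, which name 7023 of the 55421 genes and lean towards changed genes, and coordinates from RefSeq GRCm38.p6. Without Mafg, and without an exon length for Ier5l, the shares planned over 3 and 4 genes were taken over Maff and Mafk, and over Ier2, Ier3 and Ier5. Named were the members, list genes, markers, 3 closest profiles per member and the neighbours, of which some values are not reported here. Members and lists were chosen with earlier results of these data known. The alternatives were DESeq2 1.42.0, the exact test, the edgeR 4 method, no robust estimation, library size scaling, DESeq2 size factors, other filters, glmTreat, a replicate block and leaving out each library. The sequences of the members were not used here. The counts come from PCR-amplified libraries, so small counts carry more than counting error.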

Additional observations from a re-analysis of the deposited data

How the results depend on the processing

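Of the 6 members, 5 were DEGs under DESeq2, the exact test, the edgeR 4 method, no robust estimation, library size scaling, DESeq2 size factors and a filter of at least 10 counts in every library. There were 4 with no low-count filter, where Ier2 had an adjusted p of 0.0574 in edgeR, and 3 under glmTreat, which also left 221 DEGs over all genes and 0 among the CNC and BACH genes. Without each library in turn, 4 to 5 members, 553 to 877 of all genes and 0 to 1 of the IER interactors were DEGs, with the lowest count over all genes without 0 h replicate 1. The share difference at 6 h over 0 h PCS ran from −0.833 to 13.7 percentage points for Ier2 and from −7.87 to 3.91 for Ier5, and with raw counts in place of FPKM, which for the IER genes also added Ier5l to the sum, it kept its direction for the 5 genes with an FPKM. No member changed sign in any fit. Library size scaling moved the median log2 fold change of all genes to −0.32 and the calls from 762 upregulated and 138 downregulated to 572 and 627. It turned Hsf1 (−0.15), Elk3 (−0.21) and Gclc (−0.28), and without single libraries Gclc ran from −0.086 to 0.25 and Slc7a11 from −0.31 to 0.0775. The causes were not tested.

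With the replicate number as a block, 1050 genes and 4 members were DEGs, and Ier2 had an adjusted p of 0.143 and Hmox1 of 0.0565 in edgeR. Nrl had 0.00416 there, at a log2 fold change of 0.99 that misses the limit on fold. The numbers were treated as names only. Deviations from the group means correlated at 0.0037, 0.223 and 0.139 for replicates 1, 2 and 3. The pairs numbered 2 and 3 lie above every crossed pair (−0.191 to 0.0228) and the pair numbered 1 does not, so whether the numbers mark shared mice is not settled. Exon lengths from an annotation were not run. Ier5l rests on 12 to 71 counts per library, and the part of depth in its missing call was not tested.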
